A study of Ambystoma mexicanum with 5 samples.

Results

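*Hoxd13* (AMEX60DD055612) and *Hoxa13* (AMEX60DD021953) are the 2 group 13 Hox genes that the study pairs with an identifier in this count table, and they are described here among the 99088 genes listed. They were selected on the difference in their counts between posterior and anterior libraries, so that their levels are given as a description and no test is made of that difference. The libraries were made from dermal connective tissue cells of uninjured axolotl (*Ambystoma mexicanum*) lower arms, 3 from posterior skin and 2 from anterior skin. All donors, of both positions, were axolotls of 12 cm that carried transgenic cassettes inserted by the enzyme I-SceI (tgSceI; allele name Etnka). The paper gives the cassettes in a joint genotype and also lists each as a separate published line. In the Mmu.Prrx1 cassette, a mouse *Prrx1* enhancer drives nuclear TFP (TFPnls) and, behind a self-cleaving peptide, the tamoxifen-dependent recombinase ERT2-Cre-ERT2. The Caggs cassette is a reporter, loxP-GFP-loxP followed by mCherry. Treatment of the embryos with 4-OHT (4-hydroxytamoxifen) had switched connective tissue cells permanently to mCherry, and only mCherry-positive cells were sorted. The sort thus selected for labelling in the embryo, and not for activity of the enhancer at 12 cm. Each library pooled 8 axolotls, or 16 lower arms. Whether posterior and anterior libraries with equal numbers share their donors is not given by the labels. The p-values set the difference between positions against the spread between these pools, not between single axolotls.

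Hox genes encode homeodomain transcription factors and stand in clusters, and their order along a cluster follows the order in which they are switched on in the embryo. Group 13 genes lie at the 5′ end of the clusters and are the last to be expressed in the limb bud. In mouse limbs *Hoxd13* and *Hoxa13* act in the hand plate, where the digits do not form without them, and *Hoxd13* is at first expressed on the posterior side. In humans, changes in HOXD13 cause synpolydactyly and changes in HOXA13 cause hand-foot-genital syndrome. The authors compared the positions to find genes priming posterior cells for expression of the signalling gene *Shh*. They chose dermal connective tissue cells as strong carriers of positional memory.

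The libraries held between 44317956 and 59062548 counts, so that 3 counts corresponded to between 0.0508 and 0.0677 CPM by these totals alone. The unit CPM gives the count expected in a library of 1000000 counts. For all levels given below, library sizes were adjusted by TMM factors. Of all genes listed, 27710 had a count in any library and 20875 had enough counts to be tested. A symbol could be given only to the genes named in the study's tables of differences between these same libraries, so that genes with a symbol were nearly all chosen for differing. For this reason the connective tissue label could be checked only in part. Of 12 connective tissue markers 4 carry an identifier (*Col12a1*, *Postn*, *Cd34* and *Cd248*), and they summed to between 6229 and 6974 CPM in posterior libraries and between 10791 and 12263 CPM in anterior libraries. Of 12 epidermal markers 6 carry an identifier (*Krt5*, *Krt17*, *Krt18*, *Krt19*, *Col17a1* and *Dsp*), and they summed to between 634 and 878 CPM in posterior libraries and between 298 and 318 CPM in anterior libraries. No endothelial or muscle marker of the lists carries an identifier, and 1 of 6 blood markers (*Ctss*, 14.2 to 40.6 CPM in posterior and 6.1 to 12.8 CPM in anterior libraries) and 1 of 5 nerve and glia markers (*Ngfr*, 16.1 to 23.6 CPM and 42.5 to 44.7 CPM) does.

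*Hoxd13* was high in every posterior library and low in both anterior libraries. Its counts were 646, 885 and 900 in posterior replicates 1, 2 and 3, against 58 and 29 in anterior replicates 1 and 2. The corresponding levels were 11.02, 15.1 and 16.7 CPM in posterior cells, against 1.29 and 0.568 CPM in anterior cells. The lowest posterior library stood 8.51 times above the highest anterior library, so that the positions did not overlap. *Hoxd13* averaged 14.3 ± 2.95 CPM (SD, n = 3) in posterior cells and 0.931 ± 0.514 CPM (SD, n = 2) in anterior cells, a 15.3-fold ratio of means. Posterior over anterior, the fit gave a log2 fold change of 3.94 ± 0.47 (SE). *Hoxd13* was still above 3 counts, the limit set here for detection and not a measured one, in both anterior libraries.

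*Hoxa13* differed in the same direction and by less. Its counts were 361, 361 and 495 in the posterior libraries, against 92 and 81 in the anterior libraries. These counts came to 6.16, 6.17 and 9.21 CPM in posterior cells, against 2.05 and 1.59 CPM in anterior cells, and again the positions did not overlap. The lowest posterior library stood 3.00 times above the highest anterior library. *Hoxa13* averaged 7.18 ± 1.76 CPM (SD, n = 3) in posterior cells and 1.82 ± 0.33 CPM (SD, n = 2) in anterior cells, a 3.94-fold ratio of means, and a fitted log2 fold change of 1.98 ± 0.46 (SE). Over all genes tested, every posterior library lay above every anterior library in 10.5% of them, and 0.12% were called higher in posterior cells at a false-discovery rate of 0.01 in edgeR. In that fit *Hoxd13* was among the genes called and *Hoxa13* was not, while the study lists both as differing at the same rate with DESeq2. Both genes were picked for this difference, so that such calls are no test of it. These shares are background to 2 genes picked for their order, and nothing is read from them here.

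**Figure D1:**
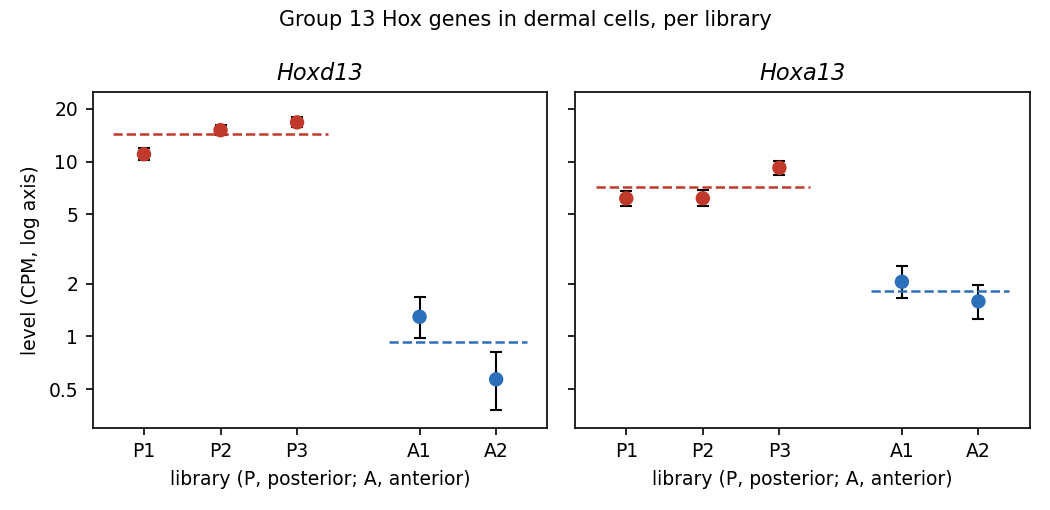
Level of *Hoxd13* and *Hoxa13* in each library in CPM on a log axis, with posterior libraries (P, red) left of anterior libraries (A, blue). Points are libraries, bars are exact Poisson intervals at 95% for counting error only, and dashed lines are the mean of each position; *Hoxd13* runs from 11.02 to 16.7 CPM in posterior and from 0.568 to 1.29 CPM in anterior cells, and *Hoxa13* from 6.16 to 9.21 CPM and from 1.59 to 2.05 CPM.

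In bulk samples such as these, fewer cells that express a gene and less RNA per expressing cell cannot be told apart. The epidermal markers with an identifier were also higher in posterior libraries, at 878, 634 and 724 CPM in posterior replicates 1, 2 and 3. These markers carry an identifier through the study's tables of differing genes, so that their sum cannot serve as a measure of the epidermal part. The part of other cell types in the *Hoxd13* and *Hoxa13* levels was not tested. Both genes are read here from the 3′ end of the transcript. How the authors counted reads with several alignments, and whether counting used the strand, is not stated, so that reads shared by the 2 paralogues, or coming from a transcript on the opposite strand, cannot be told apart.

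The spread between replicates was near or below that of genes of like counts. *Hoxd13* counts had a variance of 25.1 times their mean in posterior and 9.67 times in anterior libraries, where genes with a mean count of 0.5 to 2 times that of *Hoxd13* had a median of 33.4 and 11.6. *Hoxa13* counts had a variance of 14.8 times their mean in posterior and 0.699 times in anterior libraries, against medians of 32.0 and 12.1 for genes of like counts. The SD of log2(CPM + 0.5), which takes library size into account, was 0.304 in posterior and 0.529 in anterior libraries for *Hoxd13*. Genes of like counts had slightly lower medians of 0.284 and 0.471. For *Hoxa13* this SD was 0.314 and 0.206, against medians of 0.378 and 0.419. The 2 anterior *Hoxd13* levels differed 2.28-fold, and their exact Poisson intervals (0.983 to 1.67 CPM and 0.381 to 0.816 CPM) did not overlap. The 2 anterior *Hoxa13* levels differed 1.29-fold, with intervals of 1.66 to 2.52 CPM and 1.26 to 1.97 CPM that overlapped. Such intervals cover counting error only. No molecular identifiers are described, and several reads can stem from 1 molecule, so that the intervals may be too narrow even for that error. Of the 4935 identifiers counted in exactly 1 library, 22.01% held 29 or more counts there, which is the anterior *Hoxd13* count of replicate 2. The size of the *Hoxd13* difference therefore depended on the anterior libraries. Without anterior replicate 1 its log2 fold change was 4.65, and without anterior replicate 2 it was 3.46.

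The order of the 2 genes turned round between the positions. In posterior cells *Hoxd13* exceeded *Hoxa13* in each library, by 1.79, 2.45 and 1.82 times, whereas in anterior cells it fell short of it in each library, at 0.63 and 0.358 times. Tag counts from the 3′ end do not scale with transcript length, and a ratio within a library does not depend on the scaling between libraries. *Hoxd13* took 64.2% (exact Clopper-Pearson 95% interval 61.1 to 67.1%), 71.0% (68.4 to 73.5%) and 64.5% (61.9 to 67.0%) of the counts of both genes in posterior replicates 1, 2 and 3. Its share was 38.7% (30.8 to 47.0%) and 26.4% (18.4 to 35.6%) in anterior replicates 1 and 2. These intervals too cover counting error only, and may be too narrow where several reads stem from 1 molecule. The mean share was 66.6 ± 3.87% (SD, n = 3) in posterior and 32.5 ± 8.7% (SD, n = 2) in anterior cells. Efficiency of capture can differ between 2 transcripts, so that the share compares libraries more firmly than it compares the genes. Together the 2 genes came to 21.5 ± 4.39 CPM (SD, n = 3) in posterior and 2.75 ± 0.843 CPM (SD, n = 2) in anterior cells.

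**Figure D2:**
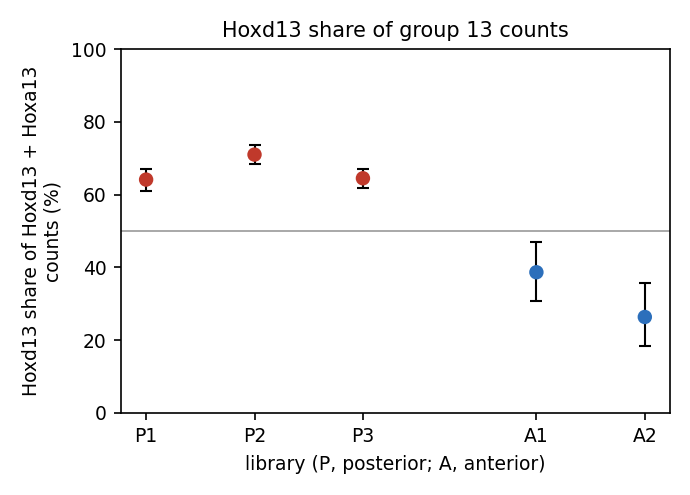
Share of *Hoxd13* in the summed counts of *Hoxd13* and *Hoxa13*, in percent, with posterior libraries (P, red) left of anterior libraries (A, blue). Bars are exact Clopper-Pearson 95% intervals for counting error, and the grey line marks equal counts; the 3 posterior libraries lie at 64.2%, 71.0% and 64.5%, all above the line, and the 2 anterior libraries lie at 38.7% and 26.4%, both below it.

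By mean CPM in posterior cells, *Hoxd13* ranked 5810 and *Hoxa13* 8554 among the 20875 genes tested, and their levels lay above those of 72.2% and 59.02% of these genes. In anterior cells *Hoxd13* ranked 15864 and *Hoxa13* 13666, above 24.005% and 34.5% of the genes tested. Both genes were thus above the median tested gene in posterior cells (4.46 CPM) and below it in anterior cells (4.53 CPM).

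Apart from these genes, the study's tables pair an identifier with *Hoxc10* and *Hoxc6*, which belong to another Hox cluster and to more 3′ groups. They stood in the opposite order. *Hoxc10* and *Hoxc6* together had 61, 51 and 126 counts in the posterior libraries, against 954 and 1140 in the anterior libraries, and *Hoxd13* and *Hoxa13* together had 1007, 1246 and 1395 counts against 150 and 110. All 4 were listed because they differ between these libraries, so that the contrast is a description. The remaining Hox genes carry no identifier in the tables used here and were not analysed. They include other group 13 genes, since the RefSeq annotation of another axolotl assembly lists 4 protein-coding genes of this group.

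Identifiers in this genome assembly are numbered, and the rows within 12 numbers on either side of each gene were taken as its surroundings without regard to their values. In the RefSeq annotation of another axolotl assembly, UKY_AmexF1_1, the protein-coding genes next to *Hoxd13* are *Hoxd11* and then *Hoxd10* on one side, and *Evx2*, *Lnpk* and *Atp5mc3* on the other. Those next to *Hoxa13* are *Hoxa11* and then *Hoxa9* on one side, and *Evx1*, *Hibadh* and *Tax1bp1* on the other. *Evx1* and *Evx2* encode homeodomain factors, and *Lnpk* encodes lunapark, a protein of the endoplasmic reticulum. That annotation shares no identifier with the count table, so that none of the surrounding rows could be given a gene name, and they are called here by their distance in identifier numbers. A transcript of a neighbouring Hox gene may or may not be among them.

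No surrounding row passed at a false-discovery rate (FDR) of 0.01 in the comparison of positions. Of the 24 rows around *Hoxd13*, 11 had no count in any library, 13 had a count and 11 were tested. Of the 24 rows around *Hoxa13*, 14 had no count, 10 had a count and 9 were tested. Rows without a count made up 45.8% and 58.3% of the 2 windows, against 56.1% of all identifiers of the placed kind. Of the 20 rows tested, 0 were called by the edgeR quasi-likelihood test, its p-values adjusted over the whole table, where 0.254% of all genes tested were called in either direction. At an FDR of 0.05, 0 were called too, where 0.608% of all genes were. Both DESeq2 and limma-voom also called 0 of them. At an unadjusted p under 0.05, 3 of the 20 passed, where 7.55% of all genes tested did. Among the 20 rows, 10 had a log2 fold change above 0, with a median of 0.01 (also with 3 counts in place of 0 for rows without anterior counts), against a median of -0.02 over all genes tested.

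The row next to *Hoxd13* stood closest to a call. The identifier 1 below *Hoxd13* had 8154, 6891 and 4798 counts in the posterior libraries, against 3302 and 3427 in the anterior libraries. It was at 115 ± 24.97 CPM (SD, n = 3) in posterior and 70.4 ± 4.63 CPM (SD, n = 2) in anterior cells, and the positions did not overlap, as in 24.1% of all genes tested in either direction. This log2 fold change of 0.71 ± 0.19 (SE) did not pass (edgeR, adjusted p = 0.25). It passed without the filter on low counts (log2 fold change 0.72, adjusted p = 0.00358). It was thus more abundant than *Hoxd13* at both positions, and its fold change was smaller.

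The most abundant row near *Hoxd13* lay 7 identifiers above it. It was at 510 ± 76.0 CPM (SD, n = 3) in posterior and 443 ± 6.62 CPM (SD, n = 2) in anterior cells, a log2 fold change of 0.20 ± 0.14 (SE). The row 2 below *Hoxd13* had 42.1 ± 8.64 CPM (SD, n = 3) in posterior cells and 42.7 ± 9.13 CPM (SD, n = 2) in anterior cells, a log2 fold change of -0.02 ± 0.22 (SE). In the first row every posterior library lay above both anterior libraries, as in 10.5% of all genes tested. The margin was small there, at 447.73 CPM in posterior replicate 3 against 447.55 CPM in anterior replicate 2. In the second row the positions overlapped, and neither row passed the test.

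Around *Hoxa13* the 3 most abundant rows did not pass the test either. The row 6 below *Hoxa13* was at 65.0 ± 4.52 CPM (SD, n = 3) in posterior and 83.6 ± 12.9 CPM (SD, n = 2) in anterior cells, a log2 fold change of -0.36 ± 0.16 (SE; adjusted p = 0.652 in the same edgeR test). In this row every posterior library lay below both anterior libraries, as in 13.6% of all genes tested. The row 7 above *Hoxa13* was at 27.7 ± 7.02 CPM (SD, n = 3) in posterior and 29.8 ± 0.665 CPM (SD, n = 2) in anterior cells. The row 11 above *Hoxa13* was at 27.7 ± 3.73 CPM (SD, n = 3) in posterior and 26.9 ± 0.397 CPM (SD, n = 2) in anterior cells. Their log2 fold changes were -0.11 ± 0.24 (SE) and 0.04 ± 0.20 (SE), within the replicate error.

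**Figure D3:**
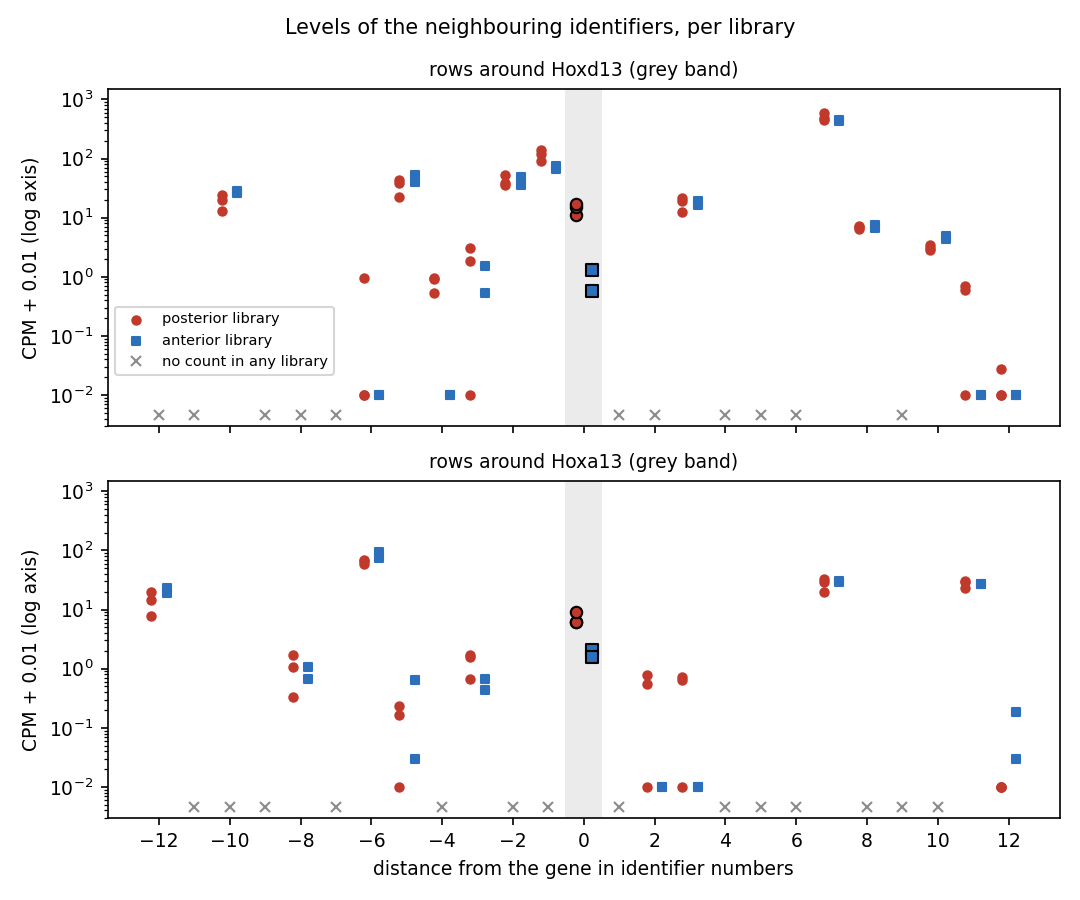
Level of each identifier within 12 numbers of *Hoxd13* (top) and *Hoxa13* (bottom) in CPM + 0.01 on a log axis, against its distance in identifier numbers; red circles are posterior libraries, blue squares anterior libraries, outlined symbols in the grey band the gene itself, and grey crosses rows with no count in any library. The row 7 above *Hoxd13* has red and blue symbols close together, at means of 510 and 443 CPM. In the row 1 below *Hoxd13* the means are 115 and 70.4 CPM. Symbols of *Hoxd13* and *Hoxa13* are apart, but these genes were picked for differing and the rows were not.

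Near both genes, 4 rows with few counts had counts in at least 2 posterior libraries and in no anterior library. This pattern was chosen after the values were seen, and no test was made of it. The row 4 below *Hoxd13* had 30, 55 and 49 counts in the posterior libraries and 0 in both anterior libraries. Its adjusted p in the same edgeR test was 0.528. The row 11 above *Hoxd13* had 0, 40 and 32 counts in the posterior libraries and 0 in the anterior libraries. The row 2 above *Hoxa13* had 45, 0 and 29 counts, and the row 3 above *Hoxa13* had 0, 37 and 38 counts, in the posterior libraries, both with 0 in the anterior libraries. The opposite pattern, counts in both anterior libraries and in no posterior library, was seen in 1 surrounding row, the row 12 above *Hoxa13*, with 0 counts in each posterior library and 8 and 1 counts in the anterior libraries. Over all identifiers with a count, 1.6% had it. The 4 rows were 17.4% of the 23 surrounding rows with a count, where 2.08% of all identifiers with a count had counts in at least 2 posterior libraries and in no anterior library. Among all identifiers with 50 to 200 counts in total the share was 6.7%, and in the windows 4 of 6 such rows had the pattern. In 3 of the 4 rows a posterior library was at 0 as well, beside other posterior libraries with 29 or more counts, so that absence from a library at this depth occurred within a position too, and no fold change is given against a count of 0. The row 6 below *Hoxd13*, with 55 counts in posterior replicate 2 and 0 in every other library, shows the same.

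The genes most like each group 13 gene were sought over the 5 libraries, by the distance between log2(CPM + 0.5) values centred on their own mean. For *Hoxd13* the nearest of the 20875 genes tested was *Hand2*, the bHLH factor that acts upstream of *Shh* on the posterior side of mouse, chick and zebrafish limb buds and fins. *Hand2* had 8994, 8416 and 7701 counts in posterior and 600 and 708 counts in anterior libraries, at a distance of 0.758 from *Hoxd13* (Pearson's r = 0.98). *Grem1*, which encodes a secreted BMP antagonist, came next at 0.817, followed by AMEX60DD008885 (0.824) and AMEX60DD054004 (0.826), which carry no symbol, and by *Tafa2* (0.937), which encodes a secreted protein. Correlations over 5 libraries of 2 positions mainly follow the difference between the positions, and they are given with no test.

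For *Hoxa13* the nearest gene was *Adamts5*, which encodes a protease of proteoglycans, at a distance of 0.14 (Pearson's r = 0.998 over the same 5 libraries). *Adamts5* averaged 37.6 CPM in posterior and 11.5 CPM in anterior cells. AMEX60DD029347 (0.208), the carboxypeptidase M gene *Cpm* (0.251), *Scrg1* (0.308) and *Cyp2a13* (0.324), which encodes a cytochrome P450, followed. AMEX60DD029347 had only 6 and 2 counts in anterior replicates 1 and 2 and a log2 fold change of 4.10, so that its place depends on the pseudocount. At a pseudocount of 0.5 the 2 lists of 5 had no gene in common. *Hoxa13* was the 48th nearest gene to *Hoxd13*, at a distance of 1.91, and *Hoxd13* was the 6323rd nearest to *Hoxa13*. The 2 genes had a Pearson's r of 0.985 over the 5 libraries. Unlike r, the distance depends on the size of the differences in log2(CPM + 0.5). The pseudocount narrows these differences at low levels. With a pseudocount of 0.1 in place of 0.5, 1 of the 5 genes nearest to *Hoxd13* and 3 of the 5 nearest to *Hoxa13* stayed in the list, and the genes that entered the *Hoxd13* list had between 1.1997 and 1.87 CPM in posterior cells. AMEX60DD023193 was then the nearest of all genes tested to *Hoxd13* (0.797), and *Hand2* (1.07) and *Grem1* were outside its nearest 5, while *Cyp2a13* was the nearest to *Hoxa13*. AMEX60DD029347 moved from the list of *Hoxa13* to that of *Hoxd13*.

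**Figure D4:**
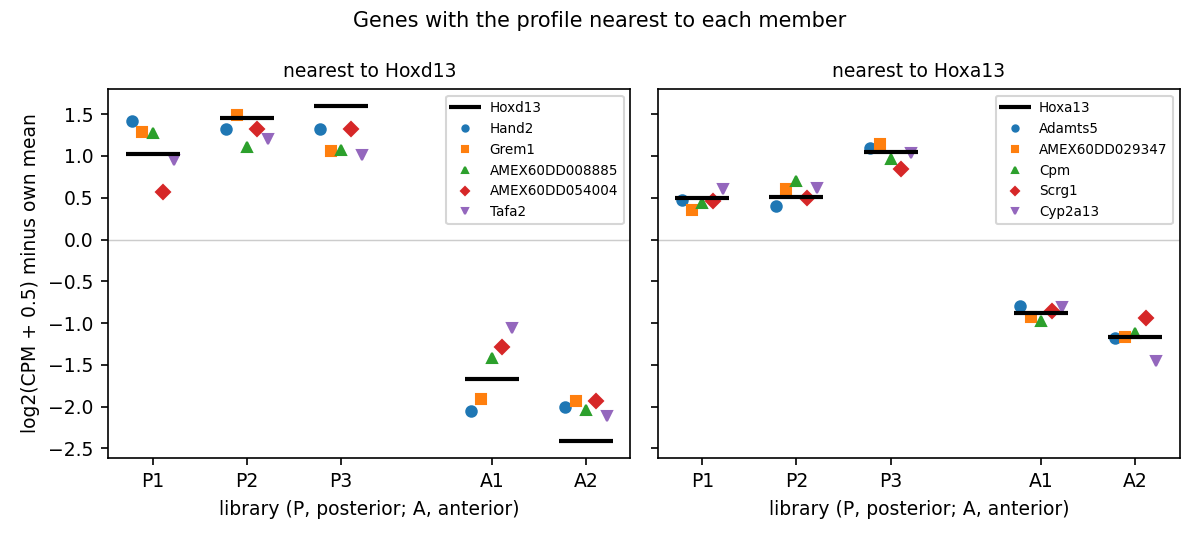
Profiles of the 5 tested genes nearest to *Hoxd13* (left) and to *Hoxa13* (right), as log2(CPM + 0.5) minus the mean of the gene over the libraries, with posterior libraries (P) left of anterior libraries (A). Black bars are *Hoxd13* or *Hoxa13* and coloured symbols the other genes; on the left *Hand2* lies 0.758 from *Hoxd13* and on the right *Adamts5* lies 0.14 from *Hoxa13* in Euclidean distance.

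Group 13 Hox genes work in the limb bud within a network of posterior, anterior and distal genes, of which a list of 44 without Hox genes was drawn up. Of these, 13 carry an identifier, all because the study's tables list them as differing, and all 13 were tested. With FDR 0.01 in edgeR, 3 were higher and 5 were lower in posterior cells. Over all genes tested 0.12% were higher and 0.134% lower, but the 13 were listed for differing and nothing is read from the contrast. The calls depended on single libraries: without posterior replicate 1 or 2, 2 higher and 0 lower genes passed, without posterior replicate 3, 2 and 1, without anterior replicate 1, 3 and 5, and without anterior replicate 2, 2 and 4. *Hand2* and *Grem1* passed in each of these fits. On the side of *Hoxd13* were *Hand2* (log2 fold change 3.43 ± 0.16 SE), *Grem1* (3.24 ± 0.18 SE) and *Tbx2* (2.07 ± 0.24 SE), which encodes a T-box repressor active at the limb bud margins. *Msx2*, a target of BMP signalling, had 1.14 ± 0.24 (SE) and did not pass (adjusted p = 0.0826). The 5 lower genes were *Alx1*, *Lhx2*, *Lhx9*, *Epha4* and *Aldh1a3*, of which *Lhx9*, a LIM homeodomain factor, had 0 counts in all 3 posterior libraries, against 550 and 899 counts in the anterior libraries. The other 4 had log2 fold changes from -3.89 (*Alx1*, a homeodomain factor) to -1.62 (*Aldh1a3*, an enzyme of retinoic acid synthesis). *Hhip*, *Cdon* and *Chrd* had log2 fold changes of -0.64, -0.86 and -0.93 and did not pass. Their adjusted p in the same edgeR test was 0.14, 0.0105 and 0.0196, so that *Cdon* and *Chrd* missed the threshold narrowly. *Epha4* encodes an ephrin receptor, and the related *Epha7* is a target of group 13 Hox factors in mouse. *Epha7* carries no identifier here. *Epha4* had 787, 892 and 834 counts in posterior and 2465 and 2563 counts in anterior libraries, and a log2 fold change of -1.84 ± 0.19 (SE; adjusted p = 0.0022 in the same edgeR test). *Pbx3*, which encodes a partner protein of Hox factors on DNA, was at 4.99 ± 0.782 CPM (SD, n = 3) in posterior and 13.2 ± 1.94 CPM (SD, n = 2) in anterior cells, and missed the threshold at a log2 fold change of -1.40 ± 0.32 (SE; adjusted p = 0.126).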

How the data were processed

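The authors prepared QuantSeq 3′ mRNA libraries, trimmed reads with Trimmomatic 0.39, aligned the reads by HISAT2, keeping at most 5 alignments of each, to the assembly AmexG_v6.0-DD, and used featureCounts to obtain gene counts. The deposited values are raw counts per gene and library, without normalization. Library totals ran from 44317956 to 59062548 counts. Versions of HISAT2 and featureCounts are not given in the sources used here. The study's own fold changes and p-values, computed with DESeq2, were not used, and its tables served only to pair 283 identifiers with symbols.

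Libraries were grouped by the position in their titles. Genes were filtered by filterByExpr, scaled by TMM and fitted with edgeR 4.0.16 in R 4.3.3 (glmQLFit and glmQLFTest, position as the term), with Benjamini-Hochberg adjustment over 20875 genes and a false-discovery rate of 0.01. The standard error is the absolute log2 fold change divided by the square root of F. The procedure was tested on counts simulated with the spread fitted to these same data, so that this cannot judge whether that spread is right. Alternatives were DESeq2 1.42.0, limma-voom (limma 3.58.1), RLE or no scaling factors, other filters, a robust fit, a larger prior count, a replicate block, leaving out each library, other windows and another threshold.

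Genes named are *Hoxd13* and *Hoxa13*, the 3 most abundant surrounding rows of each and any that passed, the 5 nearest profiles, and the limb list. Rows with counts in posterior libraries only were picked after their values were seen. The members and lists were chosen with earlier results of these data known.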

Additional observations from a re-analysis of the deposited data

How the results depend on the processing

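The log2 fold change of *Hoxd13* stayed positive in every alternative run and ranged from 3.46 (without anterior replicate 2) to 4.65 (without anterior replicate 1), and that of *Hoxa13* from 1.77 to 2.17 with a library left out. The mean *Hoxd13* share of the summed *Hoxd13* and *Hoxa13* counts ranged from 64.3% to 67.8% in posterior and from 26.4% to 38.7% in anterior cells with a library left out. With the replicate number as a block, *Hoxd13* had 3.88 and *Hoxa13* 1.77, 0 surrounding rows were called, and 130 of all genes passed, against 53 without it. The labels do not say that the numbers pair animals, and the change from replicate 1 to 2 had an r of -0.04 between the positions over 20875 genes. This r rests on replicates 1 and 2 alone and cannot show whether donors were shared. Of the surrounding rows, 0 were called in all alternatives except without the low-count filter, where 1 was. The number of all genes called moved to 300 with DESeq2, 337 without the low-count filter, 103 with the robust fit and 127 at a false-discovery rate of 0.05, and ranged from 2 to 62 with a library left out, with 5, 2 and 3 without posterior replicate 1, 2 and 3; the cause was not tested. With an anterior library left out, the lone library was assumed to vary like the posterior ones. Of the 5 nearest profiles, 1 for *Hoxd13* and 3 for *Hoxa13* were shared with the list at a pseudocount of 0.1.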

Other observations

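Within 24 identifiers of the 2 genes, 42 rows were tested and 0 were called by edgeR (FDR 0.01), with 5 at an unadjusted p under 0.05. The only row of this wider window with a symbol was *Tril*, 14 identifiers above *Hoxa13*, which encodes a partner of Toll-like receptors. It had 5715, 5530 and 6034 counts in posterior and 6507 and 8842 counts in anterior libraries, a log2 fold change of -0.65 ± 0.15 (SE; adjusted p = 0.123 in the edgeR fit), opposite in direction to *Hoxa13*. Every posterior level of *Tril* in CPM lay below both anterior levels, as in 13.6% of all genes tested. The study lists *Tril* as differing at the same rate with DESeq2, and the wider window was examined here with edgeR only.

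Of the 10 genes nearest in profile to *Hoxd13* or *Hoxa13*, 3 (*Tafa2*, *Cyp2a13* and AMEX60DD008885) lie within a stretch of 8 consecutive identifiers. This was noticed after the values were seen, and it was not tested. In that stretch 6 identifiers were tested, all with a log2 fold change above 0, from 1.89 to 7.57, and 1 was called (adjusted p = 0.00768 in the same edgeR test). Over all genes tested 48.6% had a log2 fold change above 0 and 0.12% were called higher, but the stretch was bounded by genes picked for their likeness to posterior-high genes, and nothing is read from the contrast. *Scrg1*, near *Hoxa13* in profile, lies 3 identifiers from *Hand2*, the gene nearest to *Hoxd13*.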
